A study of Equus caballus with 2 samples.

Results

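Potassium channel genes were described in equine endometrial fibroblasts cultured with or without transforming growth factor beta 1 (TGF-β1). They were chosen by symbol, as every gene whose symbol starts with KCN, continues with at least 1 letter and then has a number, and 90 of the 21426 listed genes met this rule. The group was proposed because *KCNQ5* was already known to differ between the 2 libraries, so the differences below are a description of these libraries. The fibroblasts had been isolated from the endometrium of 4 mares, were cultured on hydrogels coated with collagen and were pooled for each treatment. From 48 to 72 h, the control cells received medium with albumin in place of serum and no supplement, and the TGF-β1 cells received human recombinant TGF-β1 at 10 ng/ml in the same medium. Cells of the study's MFGE8 treatment were not analysed here. Each pool was made into 1 droplet library for single cell sequencing, in which each transcript captured from a cell is counted once by its unique molecular identifier (UMI). With 1 library per treatment, the library and the treatment cannot be told apart, and no test was made. The study assigned the cells of each pool to the single mares by genotype. That assignment was not used here, so the difference between mares was not measured.

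Potassium channels let potassium ions leave or enter a cell along their gradient and thereby hold or reset the membrane potential, which in turn sets how strongly calcium is drawn into the cell. Voltage-gated channels open on depolarization, inward rectifiers hold the resting potential, tandem-pore channels carry background leak currents, and calcium-activated channels couple the potential to intracellular calcium. Auxiliary subunits carry no potassium themselves and change the gating or the surface level of the pore-forming subunits. In the uterus these channels are best known from the smooth muscle of the myometrium, where they dampen contraction, and in connective tissue some of them have been studied during the conversion of fibroblasts to myofibroblasts.

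A cell was kept if it had 20000 or more UMIs, 3500 or more genes and less than 4% mitochondrial UMIs. These were 3865 control cells with 210497250 UMIs and 4513 TGF-β1 cells with 219731144 UMIs. The median depth was 50313 and 43142 UMIs in a cell. The fibroblast label was met: all 7 fibroblast markers were found, with a summed level of 21449 UMIs per 1000000 (CPM) in the control and 21691 CPM in the TGF-β1 library. Within this sum 4 markers were higher and 3 lower with TGF-β1, with *VIM* at 4399 and 2240 CPM and *PDGFRB* at 80.1 and 49.0 CPM. Of the defining markers of other cell types, the epithelial genes *EPCAM* and *CDH1* had 6 or fewer UMIs in each library, the leukocyte gene *PTPRC* had 1 and 0, and none of 5 endothelial markers reached 1 CPM. Other markers of these lists were present. The keratin genes *KRT8* and *KRT7* were listed at 114 and 19.3 CPM in the control and 4.48 and 7.04 CPM in the TGF-β1 library. Of 5 immune markers, *CD14* (14.0 and 9.75 CPM) and *CD68* (42.6 and 43.1 CPM) reached 1 CPM, and of 5 neural and glial markers *TUBB3* (60.9 and 132 CPM). Of 7 smooth muscle and pericyte markers, 6 were also above 1 CPM, with a summed level of 4356 and 5403 CPM, of which *ACTA2* made up 3608 and 4745 CPM. Of these 6, 3 were higher and 3 lower in the TGF-β1 library, among the latter *MCAM* (5.78 and 1.75 CPM) and *DES* (646 and 569 CPM). Of the 3 higher ones, *CSPG4* differed little (1.07 and 1.11 CPM). Of 9 cycling markers found, 8 were lower in the TGF-β1 library. All 8 genes known to respond to TGF-β were higher in the TGF-β1 library, 5 of them more than 2-fold.

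Of the 90 genes, 24 had a mean of at least 1 CPM over both libraries. Another 62 had at least 1 UMI and a lower mean, and 4 had no UMI in either library. The genes nearest to the limit were *KCND2* (mean 1.38 CPM) inside, and *KCNAB2* (0.979 CPM) and *KCNG1* (0.746 CPM) outside. Summed over all 90 genes, potassium channel transcripts made up 307 CPM in the control and 528 CPM in the TGF-β1 library (log2 ratio 0.78, 95% interval 0.77 to 0.80). All intervals are exact and cover counting error only. *KCNK1* and *KCNMB1* together held 52.9% of these UMIs in the control and 67.9% in the TGF-β1 library.

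Among the 24 genes, 6 were more than 2-fold higher in the TGF-β1 library (25.0%), namely *KCNQ5*, *KCNE3*, *KCND2*, *KCNK1*, *KCNMA1* and *KCNA3*, and 2 were more than 2-fold lower (8.33%), namely *KCNJ2* and *KCND3*. The same limit of 1 CPM left 12116 genes in all, of which 3.45% were more than 2-fold higher and 3.46% more than 2-fold lower. *KCND2* passed the limit only through the TGF-β1 library. Since the genes were proposed with this comparison known, nothing is read from these shares. In either direction, 14 of the 24 genes were higher and 10 lower. The counting interval of the ratio lay above 0 for 14 genes, below 0 for 8, and across 0 for *KCNK15* and *KCNMB3*. Over the 12116 genes it lay above 0 for 39.5% and below 0 for 42.2%, so that an interval clear of 0 was common at this depth. Over the 24 genes the log2 ratio had a median of 0.32, beside −0.01 over all 12116 genes, for which 90% of the ratios, from the 5th to the 95th percentile, lay between −0.83 and 0.78.

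**Figure D1:**
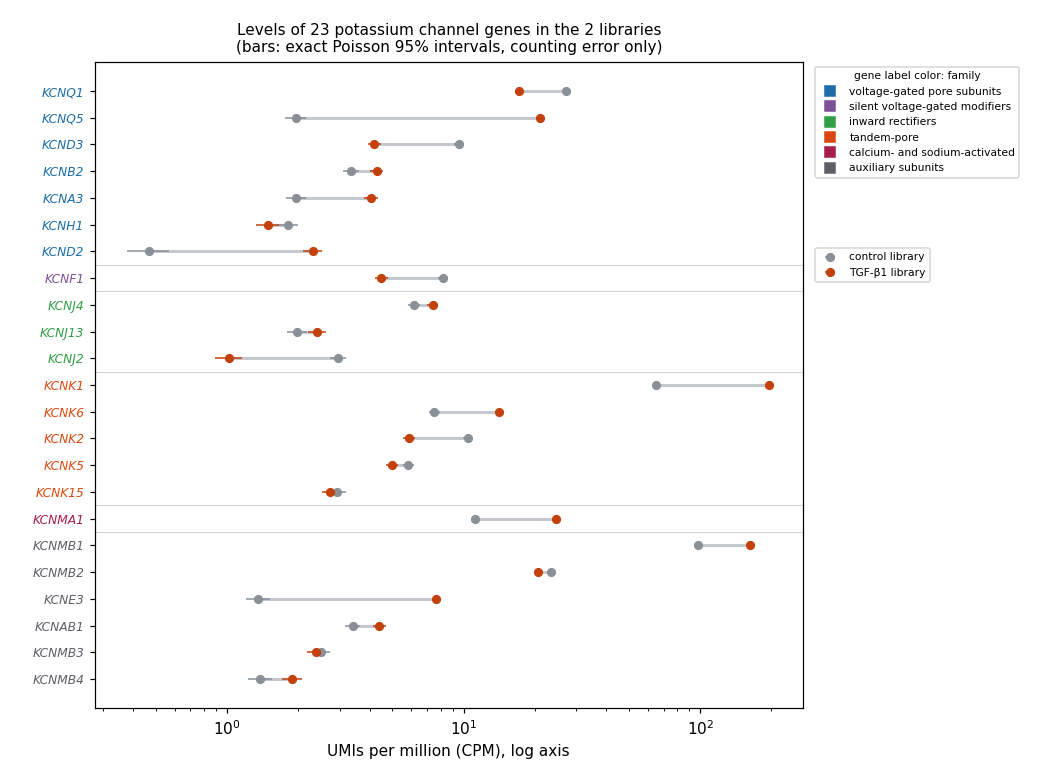
Level of 23 of the 24 potassium channel genes that reached a mean of 1 CPM in the control library (grey) and the TGF-β1 library (orange), in UMIs per 1000000 (CPM) on a log axis, with exact Poisson 95% intervals and grouped by channel family. *KCNQ5* moved from 1.95 to 21.1 CPM and *KCNK1* from 64.8 to 196 CPM, while *KCNJ2* moved the other way, from 2.95 to 1.01 CPM.

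The voltage-gated pore subunits were the largest family, with 28 genes of which 8 reached 1 CPM. Their summed level was 50.2 CPM in the control and 58.8 CPM in the TGF-β1 library (log2 ratio 0.23, 0.19 to 0.27). Behind this small difference, single genes moved far apart in opposite directions. *KCNQ5* (ENSECAG00000011900), which contributes to the slowly activating M-type current of neurons and is also found in smooth muscle, had 410 UMIs in the control and 4632 in the TGF-β1 library. This was 1.95 CPM (1.76 to 2.15) and 21.1 CPM (20.5 to 21.7), 10.8-fold higher with TGF-β1, and ranked 18 by ratio among the 12116 genes. *KCNQ1* (ENSECAG00000024970), the pore of the slow repolarizing current of the heart and of epithelial potassium recycling, was lower instead, with 27.1 CPM in the control and 17.1 CPM in the TGF-β1 library (log2 ratio −0.66, −0.72 to −0.61). *KCNQ5* therefore made up 6.70% (6.09 to 7.36) of the UMIs of both genes in the control and 55.2% (54.1 to 56.3) in the TGF-β1 library. *KCNQ3*, of the same subfamily, was sparse, with 89 UMIs in each library.

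Genes of the transient A-type channels also moved in opposite directions. Summed over the 3 *KCND* genes, the level was 10.2 CPM in the control and 6.57 CPM in the TGF-β1 library (log2 ratio −0.63, −0.73 to −0.54). *KCND2* (ENSECAG00000002703) had 0.466 CPM in the control and 2.30 CPM in the TGF-β1 library, 4.94-fold higher, whereas its relative *KCND3* (ENSECAG00000011594) had 9.53 CPM and 4.19 CPM (log2 ratio −1.18, −1.30 to −1.07). The share of *KCND2* in the UMIs of this pair was 4.66% (3.80 to 5.65) in the control and 35.4% (32.9 to 38.0) in the TGF-β1 library. *KCND2* rested on few UMIs, 98 in the control and 505 in the TGF-β1 library. Genes of proteins that assemble with A-type channels differed among themselves. *KCNIP1*, a calcium-binding subunit of these channels, had 20 and 97 UMIs (log2 ratio 2.22, 1.51 to 2.99), and *DPP6*, a membrane-spanning partner that speeds their gating, had 16 and 88 UMIs (2.40, 1.62 to 3.27). In the RefSeq annotation, which is of another assembly, *KCNIP1* overlaps *KCNMB1*, a gene with 20580 and 35726 UMIs, and how reads in the overlap were assigned was not tested. The intervals of their relatives lay across 0, with 29 and 25 UMIs of *KCNIP3* (−0.28, −1.11 to 0.55), 9 and 12 of *KCNIP4* (0.35, −1.02 to 1.78) and 26 and 37 of *DPP10* (0.45, −0.32 to 1.23).

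*KCNA3*, a channel best known from T lymphocytes, had 1.96 CPM in the control and 4.05 CPM in the TGF-β1 library (log2 ratio 1.05, 0.88 to 1.22). The interval includes the 2-fold limit, and with every cell thinned to 20000 UMIs the ratio was 0.93. The delayed rectifier *KCNB2* was listed at 3.34 and 4.29 CPM (0.36, 0.22 to 0.50). *KCNH1*, an ether-a-go-go channel that has been studied in proliferating cells, was listed at 1.80 and 1.48 CPM (−0.28, −0.50 to −0.06). Of the silent subunits, which form no channel alone and modify delayed rectifiers, only *KCNF1* of 10 genes reached 1 CPM. Its level was 8.18 CPM in the control and 4.48 CPM in the TGF-β1 library (log2 ratio −0.87, −0.98 to −0.75). Summed over the 10 silent subunits, the levels were 9.41 and 6.84 CPM.

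The inward rectifiers comprised 14 genes, of which 3 reached 1 CPM, and their summed level differed little, with 11.4 CPM in the control and 11.2 CPM in the TGF-β1 library (log2 ratio −0.02, −0.11 to 0.06). Within the sum, *KCNJ2* (ENSECAG00000007922), the classical channel of the stable resting potential, had 621 UMIs in the control and 223 in the TGF-β1 library. This was 2.95 CPM (2.72 to 3.19) and 1.01 CPM (0.886 to 1.16). The log2 ratio of −1.54 (−1.77 to −1.32) was the lowest of the 24. *KCNJ4*, a closely related strong rectifier, was listed at 6.17 and 7.39 CPM (0.26, 0.15 to 0.37), and *KCNJ13*, a weak rectifier of transporting epithelia, at 1.98 and 2.39 CPM (0.28, 0.09 to 0.47). *KCNJ13* overlaps *GIGYF2* in the RefSeq annotation, which was listed at 50.9 and 54.1 CPM, and *KCNJ2* and *KCNJ4* each overlap an unnamed protein coding gene. *KCNJ2* made up 26.6% of the UMIs of these 3 genes in the control and 9.40% in the TGF-β1 library. The pore genes of the ATP-sensitive channels were near or at 0. *KCNJ8* had no UMI in either library, and *ABCC9*, whose product assembles with it in smooth muscle and pericytes, had 2 and 1. *KCNJ11* had 39 and 53 UMIs, and its partner *ABCC8* had 5 and 14.

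Among the tandem-pore channels, 5 of 15 genes reached 1 CPM, and their sum was led by *KCNK1*. *KCNK1* (ENSECAG00000009313), a weakly rectifying leak channel that is largely held in endosomes, had 64.8 CPM (63.7 to 65.9) in the control and 196 CPM (194 to 198) in the TGF-β1 library, 3.03-fold higher. It held 70.1% of the UMIs of this family in the control and 87.2% in the TGF-β1 library. *KCNK6*, the nearest relative of *KCNK1*, was listed at 7.53 and 14.2 CPM (log2 ratio 0.91, 0.82 to 1.00). The other 3 genes were not higher. *KCNK2*, a leak channel opened by stretch of the membrane, had 10.4 CPM in the control and 5.87 CPM in the TGF-β1 library (−0.82, −0.92 to −0.72). *KCNK5*, which responds to extracellular pH, was listed at 5.84 and 4.97 CPM (−0.23, −0.35 to −0.11), and *KCNK15*, which is not known to carry a current alone, at 2.93 and 2.73 CPM (−0.10, −0.27 to 0.06). The summed level of the family was thus 92.4 and 225 CPM (log2 ratio 1.28, 1.26 to 1.31), whereas the median ratio of its 5 genes was −0.10.

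The calcium- and sodium-activated channels were represented by *KCNMA1* (ENSECAG00000010713) alone among 8 genes. *KCNMA1*, the pore of the large-conductance channel opened by both calcium and voltage, had 11.2 CPM (10.8 to 11.7) in the control and 24.5 CPM (23.9 to 25.2) in the TGF-β1 library, 2.19-fold higher. The small- and intermediate-conductance genes *KCNN1*, *KCNN2*, *KCNN3* and *KCNN4* together had 81 and 74 UMIs. The 4 beta subunits of the large-conductance channel did not move together. *KCNMB1* (ENSECAG00000021360), the beta subunit of smooth muscle that raises calcium sensitivity, had 97.8 CPM (96.4 to 99.1) in the control and 163 CPM (161 to 164) in the TGF-β1 library (log2 ratio 0.73, 0.71 to 0.76). *KCNMB2*, which inactivates the channel, was listed at 23.4 and 20.6 CPM (−0.18, −0.24 to −0.13). *KCNMB3* was listed at 2.49 and 2.38 CPM (−0.06, −0.24 to 0.11), and *KCNMB4*, the form typical of brain, at 1.38 and 1.88 CPM (0.44, 0.22 to 0.66). The pore gene differed more between the libraries than either main beta subunit, so that there were 8.72 *KCNMB1* UMIs per *KCNMA1* UMI in the control and 6.62 in the TGF-β1 library, and 2.09 and 0.838 *KCNMB2* UMIs per *KCNMA1* UMI. Beside these values, of the 6 smooth muscle and pericyte markers above 1 CPM, *ACTA2* and *RGS5* were higher in the TGF-β1 library. The smooth muscle myosin gene *MYH11* (42.9 and 25.3 CPM), *DES* and *MCAM* were lower. The interval of *CSPG4* lay across 0 (log2 ratio 0.05, −0.22 to 0.32). The part of smooth muscle-like cells in the *KCNMA1* and *KCNMB1* difference was not tested.

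Of the 15 auxiliary genes, 6 reached 1 CPM, with a summed level of all 15 of 132 CPM in the control and 202 CPM in the TGF-β1 library (log2 ratio 0.61, 0.59 to 0.63). *KCNE3* (ENSECAG00000007379), which holds *KCNQ1* channels open in intestinal and airway epithelium, had 284 UMIs in the control and 1687 in the TGF-β1 library. This was 1.35 CPM (1.20 to 1.52) and 7.68 CPM (7.32 to 8.05), 5.69-fold higher and rank 45 among the 12116 genes. *KCNE4*, an inhibitory subunit of the same subfamily, had 192 and 97 UMIs (log2 ratio −1.05, −1.41 to −0.69), and *KCNE3* made up 59.7% of the UMIs of both in the control and 94.6% in the TGF-β1 library. *KCNAB1*, a cytoplasmic subunit of the *KCNA* channels, was listed at 3.39 and 4.40 CPM (0.38, 0.23 to 0.52).

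**Figure D2:**
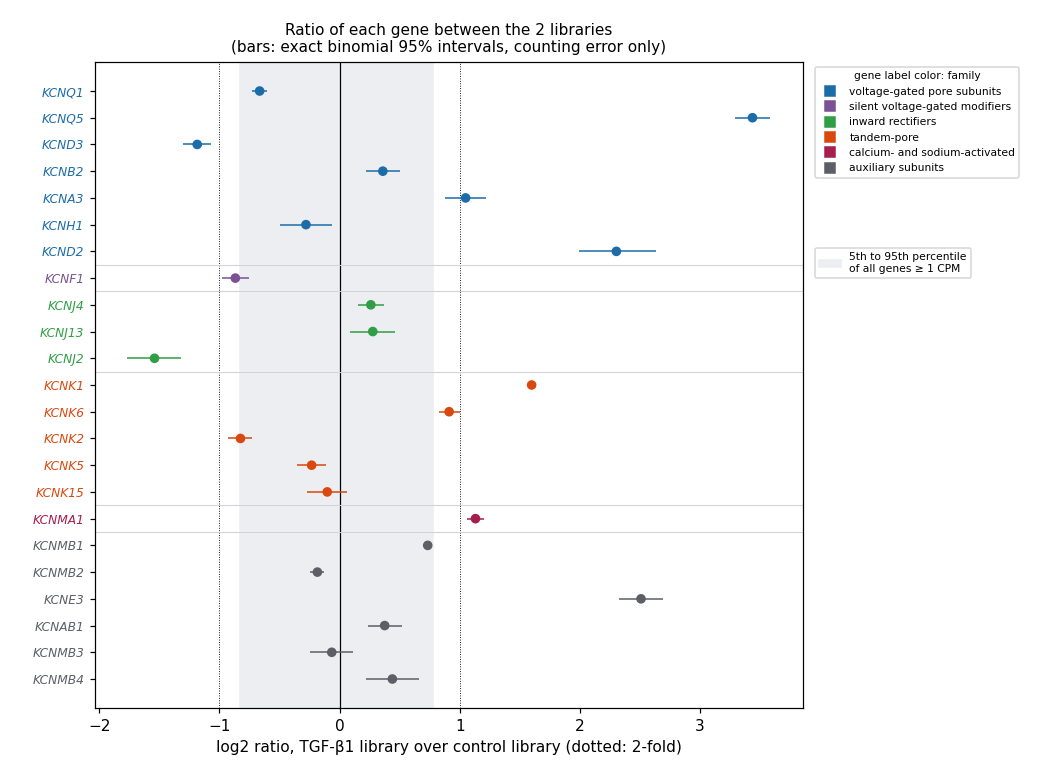
Log2 ratio of the TGF-β1 library over the control library for the same 23 genes, with exact binomial 95% intervals that cover counting error only; the grey band holds the 5th to 95th percentile of all 12116 genes that reached 1 CPM. Higher and lower genes stand side by side within the voltage-gated, inward rectifier, tandem-pore and auxiliary families, from *KCNQ5* at 3.44 to *KCNJ2* at −1.54.

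Below 1 CPM, 66 genes remained. *KCNJ8*, *KCNA5*, *KCNV2* and *KCNK16* had no UMI in either library, which by a limit of 3 UMIs allows a level of up to 0.0143 CPM in the control and 0.0137 CPM in the TGF-β1 library. In 29 genes, both libraries held 10 or fewer UMIs. Of the 37 genes with more than 10 UMIs in a library, the counting interval lay above 0 for 7 (*KCNE1*, *KCNIP1*, *KCNG1*, *KCNG2*, *KCNS1*, *KCNK3* and *KCNH5*), below 0 for 6 (*KCNAB2*, *KCNE4*, *KCNN1*, *KCND1*, *KCNH2* and *KCNH8*) and across 0 for 24. Among all 3861 genes of this range it lay above 0 for 19.1% and below 0 for 21.8%. Of the 37, 2 differed more than 4-fold, *KCNIP1* (values above) and the acid-sensitive leak channel *KCNK3*, with 7 UMIs in the control and 35 in the TGF-β1 library (log2 ratio 2.26, 1.07 to 3.68).

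The level of a gene can differ because more cells contain it or because each cell contains more. Shares of cells with at least 1 UMI were compared after every cell had been thinned at random to 20000 UMIs, since the control cells held more UMIs. *KCNQ5* was found in 2.64% of control cells (2.16 to 3.19) and in 20.0% of TGF-β1 cells (18.8 to 21.2), and unthinned in 5.49% and 30.2%. Cells with a *KCNQ5* UMI held 1.34 of them on average in the control and 2.02 in the TGF-β1 library, with up to 5 and 18 in a cell. Both the share of positive cells and the UMIs per positive cell were thus higher with TGF-β1, and most cells of either library had none at this depth. At such sparse counts, a higher level in every cell also raises the share of cells with a UMI. These measures can therefore not tell the possibilities apart.

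*KCNK1* had a UMI in 65.1% of control cells (63.6 to 66.6) and 92.2% of TGF-β1 cells (91.4 to 93.0), and unthinned in 88.0% and 98.2%. Its UMIs per positive cell were 1.99 and 4.13. *KCNMB1* was found in 62.3% and 80.3% of cells, *KCNMA1* in 16.8% and 29.8%, *KCNK6* in 13.5% and 23.9%, and *KCNE3* in 1.99% and 10.8%. For *KCNE3*, the UMIs per positive cell were nearly the same in both libraries, 1.61 and 1.63. Its UMIs were also the most unevenly spread of the 24 genes, with a variance over mean across cells of 4.29 in the control and 4.06 in the TGF-β1 library, where 1 is the value of purely random counts, and with up to 14 and 24 UMIs in a cell.

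In the other direction, *KCNQ1* was found in 33.3% of control cells and 25.6% of TGF-β1 cells, *KCNK2* in 15.4% and 9.79%, *KCNF1* in 14.8% and 9.35%, *KCND3* in 13.6% and 6.27%, and *KCNJ2* in 5.46% and 1.79%. Over the 24 genes, the thinned shares ranged from 0.569% to 65.1% in the control and from 1.79% to 92.2% in the TGF-β1 library, with *KCND2* the lowest in the control and *KCNJ2* the lowest with TGF-β1. The level of free RNA in the droplets was not measured, and no cell type that should lack these genes was at hand. A share of a few percent can therefore not be told apart from free RNA by itself.

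**Figure D3:**
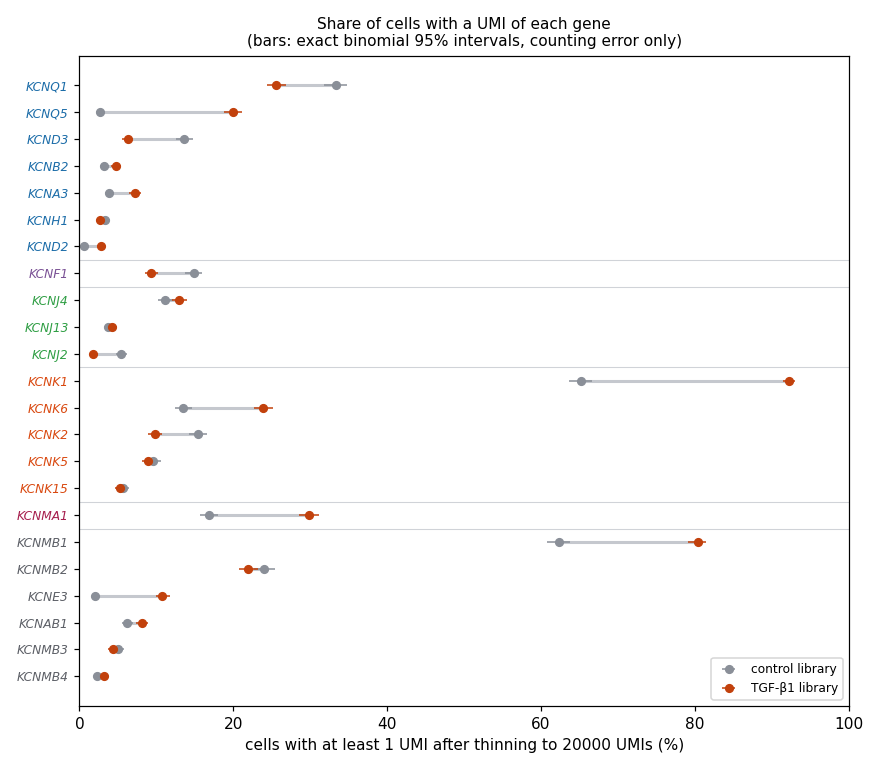
Percent of cells with at least 1 UMI of each of the 23 genes in the control (grey) and TGF-β1 (orange) library after thinning every cell to 20000 UMIs, with exact binomial 95% intervals. *KCNK1* and *KCNMB1* were found in most cells of both libraries, whereas *KCNQ5* moved from 2.64% to 20.0% of cells and *KCND3* from 13.6% to 6.27%.

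The share of cells with a UMI of a gene was then compared between cells with and without a UMI of a second gene. The pair of *KCNE3* and *KCNQ1* was not compared. In the TGF-β1 library, *KCNQ5* was found in 20.7% (17.2 to 24.6) of the cells with a *KCNE3* UMI and in 19.9% (18.7 to 21.2) of those without. In the control these shares were 5.19% (1.43 to 12.8), on 4 of 77 cells, and 2.59% (2.11 to 3.14). Among TGF-β1 cells with a *KCNQ1* UMI, 23.3% (20.9 to 25.8) had *KCNQ5*, beside 18.9% (17.5 to 20.2) of those without, while in the control both shares were 2.64%. *KCNMA1* was found in 30.3% (28.8 to 31.9) of the TGF-β1 cells with *KCNMB1* and 27.7% (24.8 to 30.8) of those without, and in 17.6% and 15.5% in the control. These are shares of cells of 1 library each, and with few UMIs per cell a gene that is present is often not captured.

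Cells were then grouped into 8 clusters, rebuilt with the potassium channel genes left out of the genes that define them and numbered from 0 to 7. In the study's own clustering, a cluster was made up almost only of cells of a single mare. Whether the rebuilt clusters also follow the mares was not tested, so differences between clusters can include differences between mares. Cluster 6 was cycling-like, where all 9 cycling markers found exceeded their level in the remaining cells by more than 2-fold, and held 134 control and 159 TGF-β1 cells. Of the 24 genes, 10 were higher in the TGF-β1 library in every cluster in which they could be counted (*KCNQ5*, *KCNE3*, *KCND2*, *KCNK1*, *KCNK6*, *KCNMA1*, *KCNMB1*, *KCNA3*, *KCNAB1* and *KCNJ4*), and 3 were lower in every one (*KCND3*, *KCNJ2* and *KCNK2*). The other 11 were higher in some clusters and lower in others. By the same count, 19.3% of all genes of at least 1 CPM were higher in every cluster and 23.6% lower. Not all of these differences were large: *KCNAB1* came to 0.00 in cluster 3 and *KCNJ4* to 0.03 in cluster 0.

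*KCNQ5* was more than 2-fold higher in 8 of 8 clusters, with log2 ratios from 2.64 in cluster 6 to 3.70 in cluster 1. Its level nevertheless differed widely between clusters of the same library. In the control it was 0.192 CPM in cluster 3 and 4.67 CPM in cluster 2, and in the TGF-β1 library 2.29 CPM in cluster 3 and 47.7 CPM in cluster 2. After thinning, 1.85% (0.925 to 3.28) of TGF-β1 cells in cluster 3 had a *KCNQ5* UMI, beside 37.1% (33.5 to 40.7) in cluster 2. The intervals of these clusters did not overlap. Cluster 3 was led by *SPP1*, *KRT7* and *KRT8* among others and held 18.4% of the control cells and 13.2% of those with TGF-β1, and cluster 2 was led by *COL4A3*, *FREM1* and *DACH1* and held 16.0% and 15.8%. The ratio of *KCNQ5* within cluster 3, whose leading genes include *KRT8*, was 3.58 (2.52 to 4.85), and within cluster 2 it was 3.35 (3.11 to 3.60). In cluster 3 it rested on 8 control and 69 TGF-β1 UMIs. The share of 1.85% there can by itself not be told apart from free RNA.

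*KCNE3* was likewise more than 2-fold higher in 8 of 8 clusters, from 1.39 in cluster 2 to 3.69 in cluster 5, where the control held only 5 UMIs. Cluster 2 held 120 of its 284 control UMIs, although after thinning only 13 of 617 control cells of that cluster had a *KCNE3* UMI (2.11%), so the control level there rested on few cells. *KCNK1* was more than 2-fold higher in 8 of 8 clusters within a narrow range, from 1.11 in cluster 7 to 1.80 in cluster 1. *KCNMA1* ranged from 0.09 in cluster 7 to 1.52 in cluster 1 and was more than 2-fold higher in 4 clusters. *KCNMB1* ranged from 0.51 in cluster 3 to 1.22 in cluster 7. *KCND2* could be counted in 5 clusters, with ratios from 0.80 to 3.30.

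*KCNJ2* was lower in all 8 clusters, in 7 of them more than 2-fold. Cluster 7, led by *CA4*, *GDF15* and *KRT1*, stood apart, with 13.8 CPM of *KCNJ2* in the control and 9.69 CPM in the TGF-β1 library, beside 1.94 to 4.10 CPM in the other control clusters. It held 108 control and 58 TGF-β1 cells. *KCND3* was lower in all 8 clusters, with ratios from −1.85 to −0.86. *KCNQ1* was lower in 7 of 8 clusters, with 0.07 in cluster 7, and its control level ran from 4.66 CPM in cluster 5 to 49.2 CPM in cluster 2. *KCNMB2* was one of the genes with mixed directions, from −0.76 in cluster 5 to 0.40 in cluster 3, which held its highest level in both libraries.

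**Figure D4:**
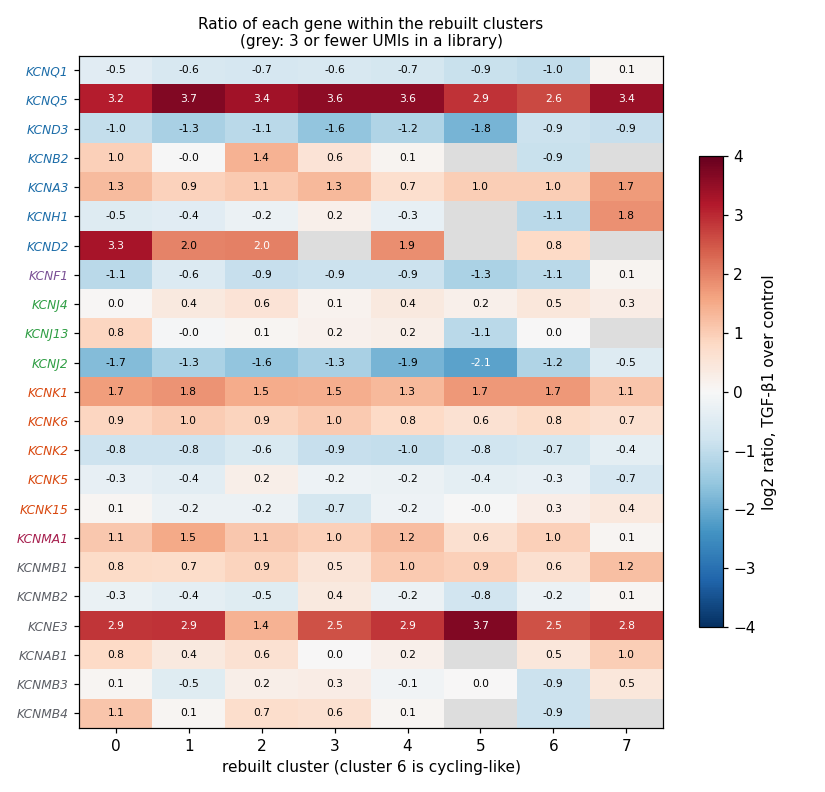
Log2 ratio of the TGF-β1 over the control library for each of the 23 genes within each of the 8 rebuilt clusters, with higher values in red, lower values in blue and tiles with 3 or fewer UMIs in either library in grey. *KCNQ5*, *KCNE3* and *KCNK1* are red and *KCND3* and *KCNJ2* blue in every column.

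**Figure D5:**
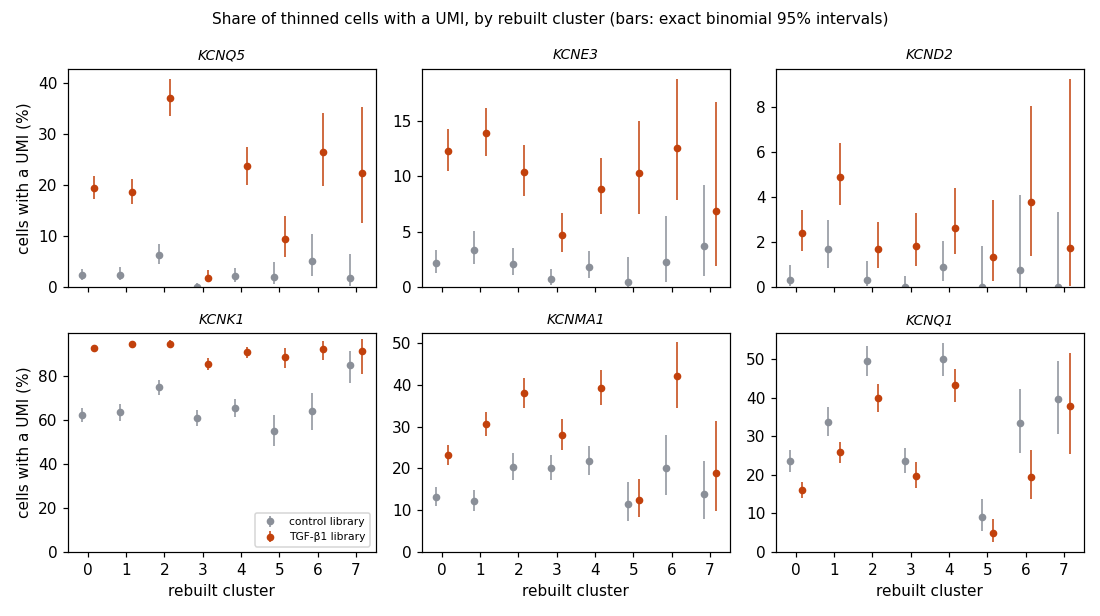
Percent of thinned cells with a UMI of 6 genes by rebuilt cluster in the control (grey) and TGF-β1 (orange) library, with exact binomial 95% intervals. For *KCNQ5*, the TGF-β1 cells of cluster 2 reached 37.1% and those of cluster 3 1.85%, beside 6.32% and 0.140% of the control cells, whereas *KCNK1* was found in most cells of all 8 clusters.

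Genes around the channels were taken from lists fixed by symbol. Of 33 genes for potassium transport and channel partners, 26 were found and 10 reached 1 CPM. Of these, 8 were higher and 2 lower in the TGF-β1 library, none of them more than 2-fold, and the median log2 ratio was 0.12. Among the 8, *SLC12A2* had a ratio of 0.01 with an interval across 0 (−0.06 to 0.07). Over all genes of at least 1 CPM the median was −0.01. The sodium-potassium pump, which builds the potassium gradient, was listed at 63.9 and 112 CPM for its beta subunit *ATP1B1* (0.81, 0.78 to 0.84). Of 23 genes for calcium entry, 15 reached 1 CPM, of which 6 were higher and 9 lower, with a median log2 ratio of −0.26. The L-type channel genes *CACNA1C*, with 311 and 381 CPM, and *CACNA1D*, with 14.0 and 25.1 CPM, were higher. The T-type channel gene *CACNA1H*, with 1.62 and 0.560 CPM, was the only one of these 15 beyond 2-fold and was lower. It passed the limit of 1 CPM only through the control library. Of the store-operated channel genes, *ORAI1* was lower, with 46.8 and 25.6 CPM, and *ORAI2* was higher, with 39.7 and 46.5 CPM. *ORAI3*, which counts among the 6 higher genes, was listed at 2.50 and 2.59 CPM with an interval across 0 (0.05, −0.12 to 0.23).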

How the data were processed

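The authors deposited UMI counts per gene and cell barcode for each library, made with Cell Ranger from reads aligned to EquCab3.0 and Ensembl genes. Its version is 7.1.0 in the methods and the submitters' processing notes and 8.0.1 in the file headers, and whether intronic reads were counted was not given in the sources used here. The levels of long genes such as *KCNQ5*, *KCNMA1*, *KCND2* and *KCNB2*, and the UMI shares they enter, can depend on it, which was not tested. The counts were whole numbers for 4384 control and 5124 TGF-β1 barcodes, and 6 barcodes were shared by both libraries, 2 of them among kept cells. Cells were kept at the study's UMI, gene and mitochondrial limits (88.2% and 88.1%). Doublets, which the study removed from the reads by genotype, were not removed, and the assignment of cells to mares was not used here.

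UMIs of kept cells were summed per library or cluster and scaled to CPM. Log2 ratios carry no pseudocount, and none is given where both libraries (or, within a cluster, either) held 3 or fewer UMIs. Intervals are exact Poisson for levels and Clopper-Pearson for shares and ratios (95%). The depth of 210497250 and 219731144 kept UMIs makes them narrow, and they leave out the difference between cultures. Those of levels, ratios and UMI shares also leave out the uneven spread of UMIs between cells. Python 3.11.15, numpy 2.4.6, scipy 1.17.1, pandas 2.3.3 and matplotlib 3.10.9 were used. Clusters were rebuilt in R 4.3.3 with Seurat 5.3.0 and SeuratObject 5.2.0 (log normalization, 2000 variable genes without the potassium channel genes, which removed 16, 30 dimensions, canonical correlation integration, resolution 0.5).

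The genes and lists were chosen with earlier results of these data known. Every channel gene with a mean of at least 1 CPM is named, except 1 that counts among the 24 and is not reported here singly, and those below where at 0 in both libraries or more than 4-fold different with more than 10 UMIs. Subfamily members and partners named beside them, and the genes below 1 CPM grouped by their interval, were chosen after their values were seen. All 90 symbols matched the RefSeq assembly TB-T2T, which was used only for gene names and overlaps, since the counts rest on another build. It holds 4 other genes that meet the rule and were not analysed here, and 5196 listed genes had no symbol, so the subfamilies described can be incomplete. In it, 14 of the 24 genes overlap another gene and 6 a protein coding one (*KCNB2*, *KCNJ13*, *KCNJ2*, *KCNJ4*, *KCNMB1* and *KCNMB3*), and how reads in overlaps were assigned was not checked. Gene lengths were not used, so shares and ratios of the UMIs of different genes serve only to compare the libraries, not the levels of the genes.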

Additional observations from a re-analysis of the deposited data

How the results depend on the processing

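No paired analysis was made because the assignment of cells to mares was not used here, which leaves 1 library per treatment. The cells kept were varied (every deposited barcode, 10000 UMIs as the minimum, up to 6% mitochondrial UMIs, no cells past the 98th percentile of UMIs), as were the scaling (median-of-ratios factors, averaged per-cell CPM, totals without mitochondrial genes), the cell mix (equal cluster shares in both libraries, no cycling-like cells) and the depth (thinned cells). Under these 10, no ratio of the 24 genes changed sign, 235 of 240 ratios stayed within their counting interval, and the largest shift was 0.17. *KCNA3* fell below the 2-fold limit in thinned cells, with 0.93, and *KCNMB2* came to −0.03 there. *KCNQ5* stayed between 3.34 and 3.51. The summed auxiliary subunits had a log2 ratio of 0.67 by averaged per-cell CPM, 0.63 with equal cluster shares and 0.68 in thinned cells, where the inward rectifiers had −0.11 and the tandem-pore channels 1.26. The cause of these shifts was not tested.

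With a minimum of 10 CPM, which tests fewer genes, 7 genes remained, 3 of them more than 2-fold higher (2.3% of all genes of that level) and 0 lower (2.13%), with a median of 0.91. *KCNQ5* and *KCNK6*, whose own ratio is this median, passed that limit only through the TGF-β1 library, so neither the count nor the median is support for a direction. With 2 CPM, 5 genes were more than 2-fold higher (3.09% of all genes) and 1 lower (3.0%). Of these 5, *KCNQ5* (1.95 CPM in the control), *KCNE3* (1.35 CPM) and *KCNA3* (1.96 CPM) passed that limit only through the TGF-β1 library. This count is therefore also no support for a direction. With a 1.5-fold limit at 1 CPM, 9 were higher (7.64%) and 5 lower (9.36%). Without thinning, the share of cells with a *KCNQ5* UMI was 5.49% in the control and 30.2% in the TGF-β1 library. At a clustering resolution of 0.3, 9 genes were higher (24.1%) and 4 lower (26.1%) in every counted cluster, and at 0.8 these were 7 (18.0%) and 4 (21.1%), beside 10 and 3 at 0.5, with the share of all genes in parentheses. Depth limits what can be said of the 66 genes below 1 CPM.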
